A study of Mus musculus with 8 samples.

Results

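*Crtam*, the gene of an immunoglobulin superfamily receptor of activated cytotoxic T cells and NK cells, was examined together with 9 genes that mark T cells or NK cells (*Cd2*, *Cd3e*, *Cd3g*, *Cd4*, *Cd5*, *Cd8a*, *Gzma*, *Gzmb* and *Nkg7*) in the ipsilateral hemisphere of mice after permanent middle cerebral artery occlusion (PMCAO). Every non-control probe that carries the symbol of 1 of these 10 genes was taken, which gave 15 probes with 33 spots, of 41174 probes with 43379 spots on each array. *Crtam* was chosen by its PACAP38 over saline ratio in PMCAO at 6 h, so all *Crtam* values are given as a description, with no test. The other 9 genes were chosen as lymphocyte genes after results of these data were known.

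Male C57BL/6J mice aged 8 to 12 weeks underwent sham surgery or PMCAO and received, right after surgery and into the cerebral ventricle, either 1 pmol PACAP38 (pituitary adenylate cyclase-activating polypeptide, a neuropeptide) in 1 μL or saline. Occluded mice were kept only where their neurological score showed a deficit of the lower grades. The right hemisphere, without olfactory bulb and cerebellum per the methods, was collected at 6 h or 24 h, and RNA of 3 mice was pooled for each of the 8 combinations of surgery, time and injection. The PACAP38 pool and the saline pool of each of 4 comparisons (sham 6 h, PMCAO 6 h, sham 24 h, PMCAO 24 h) were hybridized together on 2 arrays with the dyes exchanged. The labels give the 2 arrays different pool numbers, but by the methods a single RNA pool was labeled with each dye in turn. Each comparison therefore has 1 replicate and its difference has no replicate check between mice.

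CRTAM binds the adhesion molecule CADM1 (Necl-2) on other cells and works with the polarity protein SCRIB in T cells. The CD3 chains carry the signal of the T cell receptor, CD4 and CD8 are its coreceptors, CD2 and CD5 are surface receptors that raise or damp that signal, and granzymes and NKG7 belong to the cytotoxic granules of T cells and NK cells. The uninjured brain holds few lymphocytes, and after occlusion neutrophils and monocytes are known to enter before T cells do.

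The probe letters are shown for *Crtam*, on which the results turn. The line gives the first 30 bases of the 60-mer from 5′ to 3′, as the array files list it, in lower case with nothing marked.

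Crtam (A_51_P150302): tgacaagaggcttcctgactaaccatgagc

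In the mm7 build named by the files, the *Crtam* probe lies at chr9:40903326-40903385 on the minus strand, and all 3 reading frames of its 60 bases hold a stop codon. Exon positions could not be read here, because no annotation of mm7 was used.

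The 6 h arrays shared 1 slide and 1 version of the image software, and the 24 h arrays another of each. Time, slide and software version therefore cannot be told apart. On each array 62.1% to 76.0% of spots were well above background, the software's own flag for a spot brighter than its local background. Outlier spots made up 0.323% to 3.09% on 7 arrays and 10.65% on the sham 6 h array with PACAP38 in Cy3. That array stands apart. Member ratios that rest on it are given beside those of its dye-swapped partner, and every mean or count of sham at 6 h, or of PMCAO over sham at 6 h, includes it. In bulk tissue, fewer cells of a type and less RNA per cell cannot be told apart.

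Most members were at or near background. Of the 15 probes, 1 (*Cd5*) was well above background in all 16 channels (8 arrays, 2 dyes), 3 (*Crtam* in 14, *Cd3e* A_51_P455681 in 13 and *Cd5*) in at least 8, and 6 in none, whereas 27802 of all 41174 probes passed in at least 8. The 6 probes were the dimmer *Cd3e* probe, *Cd4* A_51_P236573, *Cd8a* A_51_P345121 and A_52_P150547, *Gzma* and *Nkg7* A_51_P499195. Their processed signals (background-subtracted intensity) reached at most 23.0 in any channel. In 25 of the 120 pairs of a member probe and an array, the software had put a surrogate value in both channels, which sets the log ratio to 0 whatever the RNA was.

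The *Crtam* signal ran from 14.0 to 357.9 over the 16 channels. In PMCAO at 6 h its processed signal was 72.9 (Cy3) and 79.6 (Cy5) in the saline pool and 290.0 (Cy5) and 357.9 (Cy3) in the PACAP38 pool. The PACAP38 pool was the brighter on both arrays, with log2 ratios of PACAP38 over saline of 1.99 and 2.17, a mean of 2.08 or 4.23-fold. Over all 39772 probes with a value on both arrays this was rank 6 from the top, and it was rank 5 of the 26013 probes well above background on both arrays in at least 1 pool.

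In sham at 6 h the *Crtam* signal was 14.0 and 14.4 in the saline pool and 19.8 and 26.6 in the PACAP38 pool. The saline pool was not well above background on either array, so PACAP38 over saline has only a bound there, at least 1.1-fold. The log2 ratios were 0.49 on the array with PACAP38 in Cy5 and 0.88 on the array with many outlier spots. Limits of this kind use the processed signals after loess and Aquantile and set the mean of the brighter pool against the higher of the dim probe's own signal and the lowest signal of any probe well above background.

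At 24 h the order of the pools turned. In PMCAO the signal was 50.6 and 53.7 with saline and 29.7 and 28.6 with PACAP38, and the log2 ratios were -0.77 and -0.91, a mean of -0.84 or 0.559-fold. In sham at 24 h the 4 signals lay between 21.2 and 26.2 and the log2 ratios were -0.14 and 0.31, of opposite sign between the arrays. Thus *Crtam* was higher with PACAP38 on both arrays of PMCAO at 6 h and lower on both arrays of PMCAO at 24 h, a difference of 2.92 on the log2 scale that was not tested.

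The size of the *Crtam* values depended on background handling. With normexp background correction (offset 50) and loess in place of the software's processing, the mean log2 ratio in PMCAO was 0.70 at 6 h and -0.34 at 24 h, of which the second no longer passed 0.75-fold, and in sham it was 0.08 at 6 h and 0.05 at 24 h. An offset pulls ratios of dim probes toward 0 by construction.

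**Figure D1:**
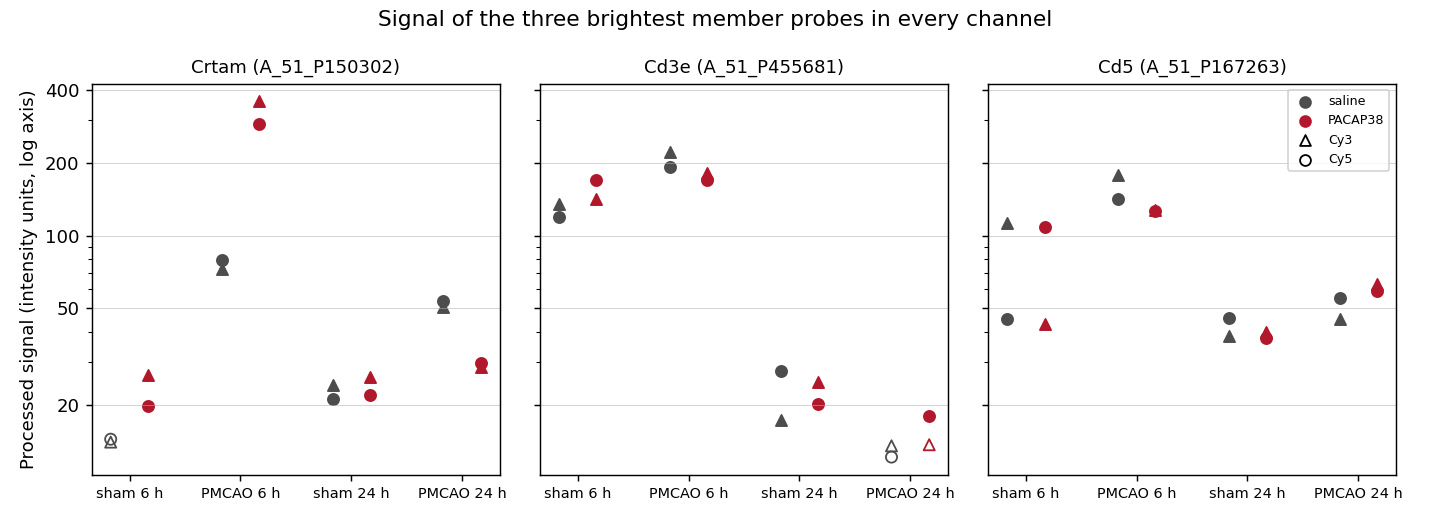
Processed signal (intensity units, log axis) of the *Crtam*, *Cd3e* A_51_P455681 and *Cd5* probes in every channel of the 4 comparisons; grey is saline, red is PACAP38, triangles are Cy3, circles are Cy5, and open symbols are not well above background. *Crtam* reaches 290.0 and 357.9 with PACAP38 in PMCAO at 6 h, and *Cd3e* lies between 119.8 and 222.3 at 6 h but between 12.2 and 27.5 at 24 h.

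*Crtam* also differed between PMCAO and sham. This comparison used channels of the same dye at the same time, each scaled to its 75th percentile, with means over the 2 dyes. With saline at 6 h, PMCAO was higher by 2.42 (Cy3) and 1.78 (Cy5) on the log2 scale. Since the sham pool was not well above background, the mean of the dyes is given as a limit, at least 3.65-fold. That limit is on the scale after loess and Aquantile, and the Cy5 pair alone lies under it. With PACAP38 at 6 h PMCAO was higher by 3.07 (Cy3) and 3.93 (Cy5), a mean of 11.3-fold. The Cy5 value with saline and the Cy3 value with PACAP38 come from the sham array with many outlier spots. At 24 h it was higher by 1.1 and 1.45 with saline (mean 2.42-fold) and by 0.23 and 0.45 with PACAP38 (mean 1.27-fold). After normexp, loess and Aquantile these 4 differences were 0.88, 1.5, 0.38 and -0.01, so the one at 24 h with PACAP38 turned its direction.

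On that scale (log2 relative to the 75th percentile) the 8 *Crtam* pool levels fell in the order PMCAO 6 h PACAP38 (-1.30), PMCAO 6 h saline (-3.39), PMCAO 24 h saline (-4.20), sham 6 h PACAP38 (-4.80), PMCAO 24 h PACAP38 (-5.05), sham 24 h PACAP38 (-5.39), sham 24 h saline (-5.48) and sham 6 h saline (-5.49). Of these pools only sham 6 h saline was not well above background on either array. The dyes of a pool lay at equal distance from its level, and that distance was between 0.01 and 0.07 in the PMCAO pools and 0.50 in the sham 6 h PACAP38 pool. It is the distance between labelings of 1 pool and holds no spread between mice, so whether neighbouring pools differed beyond their spread was not tested.

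Among the 5 genes whose 8 pool levels were most like those of *Crtam* were *Arhgap22* (a GTPase-activating protein; Pearson r = 0.97), *Nfkbid* (an inhibitor of kappa B family protein; r = 0.97), *Cep43* (a centrosomal protein; r = 0.97) and *Prdm2* (a histone methyltransferase; r = 0.97). The 5 were taken from 17933 probes with a symbol that were well above background in at least 8 channels. Picking the highest of so many over 8 points favours a high r by itself. The 8 levels also include the pools of PMCAO at 6 h whose ratio chose *Crtam*. These r are therefore a description and no support. The 8 points share slides and arrays in pairs, and the log2 ratios of these 4 named genes in PMCAO at 6 h were smaller, from 0.18 to 0.58. For the members r ran from 0.15 (*Cd4* A_51_P236573, at background) to 0.82 (*Gzmb*, well above background in 1 channel). For *Cd5* it was 0.65 and for the brighter *Cd3e* probe 0.45. The member r values also hold any difference between the 6 h and the 24 h slide.

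The brighter *Cd3e* probe did not follow *Crtam*. In PMCAO at 6 h its signal was 222.3 and 192.7 with saline and 169.7 and 180.4 with PACAP38, which gave log2 ratios of -0.39 and -0.10. In sham at 6 h the ratios were 0.33 and 0.24, from 135.6 and 119.8 with saline and 170.4 and 141.7 with PACAP38. The direction was thus opposite in sham and PMCAO at 6 h, and neither mean (sham 1.22-fold, PMCAO 0.845-fold) passed 1.5-fold or 0.75-fold. At 24 h the ratios were 0.22 and -0.15 in sham, and 0.41 and 0.17 in PMCAO, where the saline pool was not well above background.

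*Cd3e* signals at 24 h were 12.2 to 27.5, all below the lowest of 6 h, 119.8. PMCAO over sham was 0.76 and -0.00 with saline at 6 h and -0.34 and 0.05 with PACAP38, which the dyes do not place on 1 side of 0. At 24 h it was -0.32 and -1.07 with saline and -0.76 and -0.15 with PACAP38. With saline the limit for the mean of the dyes was sham brighter by at least 1.43-fold, which the Cy3 pair alone (-0.32) lies under. The dimmer *Cd3e* probe, from another transcript clone, stayed between 3.05 and 11.9 in every channel.

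*Cd5*, the member measured in all channels, moved little with PACAP38. In PMCAO at 6 h its signal was 177.9 and 142.2 with saline and 126.9 and 127.6 with PACAP38, with log2 ratios of -0.49 and -0.16. In PMCAO at 24 h it was 45.3 and 55.5 with saline and 59.2 and 63.2 with PACAP38, with ratios of 0.39 and 0.19. In sham the arrays gave -0.05 and -0.07 at 6 h, then -0.02 and -0.19 at 24 h. The sham 6 h array with many outlier spots was dimmer for *Cd5*, at 45.3 and 43.2 against 112.2 and 108.6 on its partner, with either pool alike. The PACAP38 pool was thus the dimmer on both arrays of PMCAO at 6 h and the brighter on both arrays of PMCAO at 24 h, the reverse of *Crtam*, with means of 0.800-fold and 1.22-fold inside the thresholds.

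PMCAO over sham of *Cd5* was above 0 in each of the 8 same-dye pairs. It was 0.71 and 0.96 with saline at 6 h (1.78-fold), 0.88 and 0.28 with PACAP38 at 6 h, 0.27 and 0.38 with saline at 24 h, and 0.75 and 0.66 with PACAP38 at 24 h (1.63-fold). In the limma fit over the 4 differences the mean was 0.61 ± 0.25 (SE) with an adjusted p of 0.54, so the difference did not pass the test.

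The coreceptor probes that were partly measured gave ratios that went with the dye. *Cd4* A_52_P383089, with 10 spots an array, was well above background in 5 channels at 6 h and 1 at 24 h. Its log2 ratios, with PACAP38 in Cy5 first, were 0.68 and -0.82 in sham and -0.14 and -0.43 in PMCAO at 6 h. At 24 h they were 0.61 and -1.13 in sham and 1.56 and -0.63 in PMCAO. In 3 of the 4 comparisons the sign followed the dye. In PMCAO at 6 h its signal was 58.6 and 60.6 with saline against 30.6 and 13.5 in sham with saline, the 13.5 from the array with many outlier spots. PMCAO over sham was 1.08 (Cy3) and 1.48 (Cy5) on the log2 scale. The limit for the mean of the dyes was at least 2.43-fold, which the Cy3 pair alone lies under. After normexp, loess and Aquantile the mean difference was 0.29.

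*Cd8a* A_52_P443334, likewise with 10 spots, passed in 3 channels, all at 6 h, at signals up to 28.4. Its ratios ran from -0.65 to 0.46 and were of opposite sign on the 2 arrays of each comparison. The other *Cd8a* probes stayed at 11.5 or lower in every channel.

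*Cd2* and *Cd3g* passed in 3 channels each, all at 6 h. *Cd2* was brighter with PACAP38 on both arrays of PMCAO at 6 h (log2 ratios 0.77 and 0.34, signals 15.9 and 20.3 with saline and 27.1 and 25.7 with PACAP38), where either pool was well above background on 1 of the 2 arrays. *Cd3g* in the same pools gave -0.20 and 0.43. In sham at 6 h its ratio was 0.10 on 1 array and 1.68 on the array with many outlier spots, and no fold is given because the saline pool was well above background on neither array and the PACAP38 pool on 1.

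Of the cytotoxic granule genes, *Gzmb* (granzyme B) had log2 ratios of 0.67 and 0.96 in PMCAO at 6 h, the sole member besides *Crtam* past 1.5-fold on both arrays of a comparison. Its signals there were 7.43 and 8.36 with saline and 11.8 and 16.2 with PACAP38, none of them well above background, so no fold is given. *Gzma* (granzyme A) gave 0 with PACAP38 in Cy5 and 1.86 with PACAP38 in Cy3 in PMCAO at 6 h, the second from a single channel at 23.0. *Nkg7* A_52_P24447 passed in 6 channels, and in sham at 24 h it was brighter with PACAP38 by 0.96 and 0.26 (1.53-fold). With PACAP38 at 24 h its signal was 22.4 and 24.1 in sham against 10.4 and 4.07 in PMCAO, and sham was brighter by at least 1.48-fold.

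**Figure D2:**
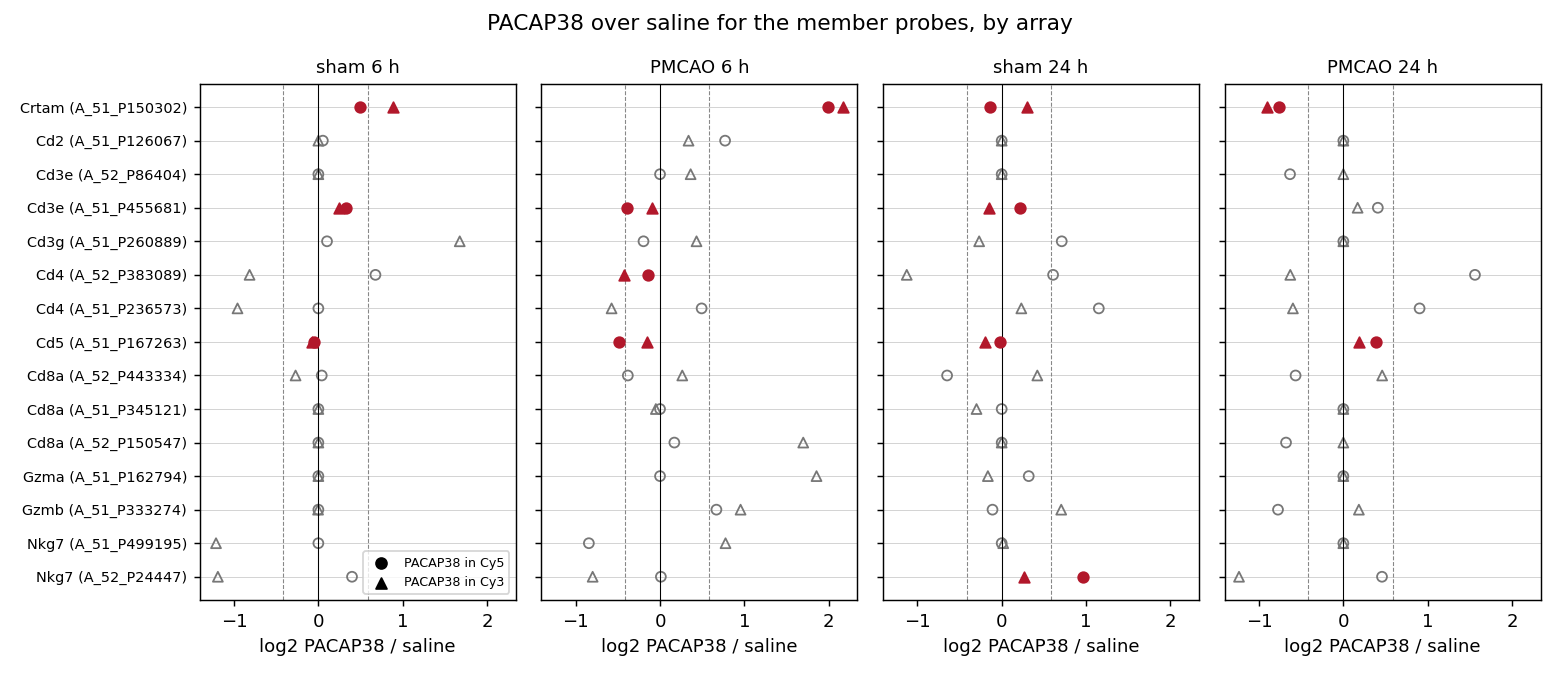
Log2 ratio of PACAP38 over saline for the 15 member probes on each array of the 4 comparisons; circles have PACAP38 in Cy5, triangles in Cy3, filled red symbols are probes well above background on both arrays in at least 1 pool, and dashed lines mark 1.5-fold and 0.75-fold. *Crtam* stands at 1.99 and 2.17 in PMCAO at 6 h and at -0.77 and -0.91 in PMCAO at 24 h, and most open symbols of a probe lie apart on the 2 arrays.

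By the thresholds of the study, above 1.5-fold or below 0.75-fold on the mean of the 2 arrays, 4 member probes were up in PMCAO at 6 h (*Crtam*, *Cd8a* A_52_P150547, *Gzma* and *Gzmb*), where 5.41% of all probes were up, and 0 were down, where 6.9% of all were. In sham at 6 h 2 were up (*Crtam* and *Cd3g*; 3.98% of all) and 2 down (*Cd4* A_51_P236573 and *Nkg7* A_51_P499195; 7.48% of all). In sham at 24 h 2 were up (*Cd4* A_51_P236573 and *Nkg7* A_52_P24447; 1.75% of all) and 0 down (3.87% of all). In PMCAO at 24 h 0 were up (2.99% of all) and 1 was down (*Crtam*; 8.18% of all). The median log2 ratio of the 15 probes was between -0.02 and 0.01 in every comparison, as was that of all probes. This match says little, because surrogate values set many member ratios to 0 and dye normalization centers all probes near 0.

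Where a call also needed both arrays past the threshold and the brighter pool well above background on both, 1 member probe remained, *Crtam*, up in PMCAO at 6 h (0.661% of all probes were up and 0.79% down) and down in PMCAO at 24 h (3.09% down and 0.418% up). None was called in sham at 6 h, with 0.18% of all up and 0.283% down, or in sham at 24 h, with 0.0656% up and 0.299% down. *Crtam* was chosen for its ratio, so its own calls are no finding. Of the 56 mean ratios of the other 14 probes, 19 had opposite signs on the 2 arrays, 14 the same sign and 23 a 0 on at least 1 array.

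The mean of the 4 log2 ratios of PACAP38 over saline, each from 1 pair of pools, was tested with limma. This fit tests only a change shared by the 4 comparisons and cannot show one confined to 1 surgery or time. None of the 36121 probes passed an adjusted p of 0.05 (0% called, 1782 at an unadjusted p under 0.05), and neither did any of the 14 member probes other than *Crtam*, whose means ran from -0.16 to 0.31 with adjusted p of 0.87 or higher. Of the 14, 1 had an unadjusted p under 0.05, *Cd8a* A_52_P443334, at a mean of -0.08 ± 0.02 (SE), from the ratios that changed sign between arrays.

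PMCAO over sham gave more member probes past the thresholds, at a higher background. By the mean over both dyes, 7 member probes were up with saline at 6 h (19.5% of all probes) and 11 with PACAP38 (17% of all), and 0 were down in either (34.9% and 30.6% of all). The median difference of the members was 0.55 with saline and 0.74 with PACAP38, against -0.13 and -0.06 over all probes. Of those up with PACAP38, *Cd4* A_51_P236573, *Cd8a* A_51_P345121 and A_52_P150547, *Gzma*, *Gzmb* and *Nkg7* A_51_P499195 were well above background in neither pool. After normexp, loess and Aquantile, which shrinks dim ratios, those up with PACAP38 other than *Crtam* were at 0.23 or lower. All 6 h differences include the sham array with many outlier spots. At 24 h 2 were up (9.56% of all) and 6 down (13.3% of all) with saline, and 1 was up (6.39% of all) and 4 down (8.19% of all) with PACAP38, with medians of 0.03 and 0.06.

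With both dyes past the threshold and the brighter pool well above background on both arrays, the 6 h calls were *Crtam*, *Cd4* A_52_P383089 and *Cd5* up with saline (5.45% of all up, 9.48% down) and *Crtam* up with PACAP38 (3.03% of all up, 4.93% down). At 24 h they were *Crtam* up with saline (4.65% of all up, 5.93% down), and *Cd5* up and *Nkg7* A_52_P24447 down with PACAP38 (2.15% of all up, 2.18% down). Over the 4 differences limma called none of 36121 probes (0% called, 3097 at an unadjusted p under 0.05). That fit likewise tests only a change shared by both times and both injections. Of the 14 member probes other than *Crtam* none was under 0.05 unadjusted, and their means ran from -0.36 to 0.61. Scaling by the median in place of the 75th percentile moved the median of all probes from -0.03 to -0.14.

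**Figure D3:**
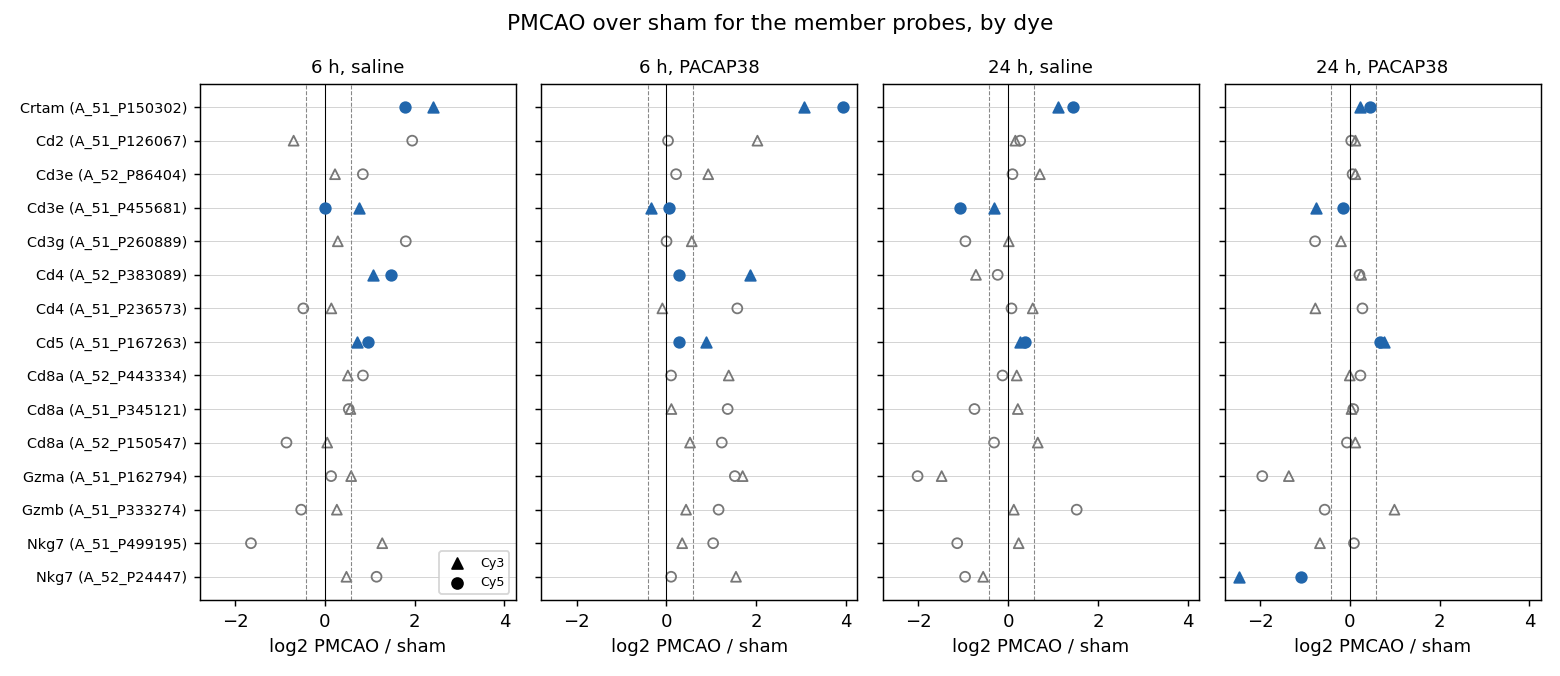
Log2 difference of PMCAO over sham for the 15 member probes by time and injection; triangles are Cy3 pairs, circles are Cy5 pairs, filled blue symbols are probes well above background on both arrays in PMCAO or sham, and dashed lines mark 1.5-fold and 0.75-fold. *Crtam* is at 3.07 and 3.93 with PACAP38 at 6 h, and *Cd5* lies above 0 in all 4 panels.

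A wider list of T and NK lymphocyte genes, 47 of 48 of them on the arrays, was set beside the members. Of these 47, 11 were well above background in no channel, 21 in at least 8 and 14 in all 16. With PACAP38 in PMCAO at 6 h, where *Crtam* was 4.23-fold up, 0 of the 47 were up (0.661% of all probes) or down (0.79% of all) in the strict sense above. The median of the 20 that were well above background in a pool was -0.03, against -0.003 over all such probes. In sham at 6 h 1 was up (*Tbx21*; 0.18% of all) and 0 down (0.283% of all). In sham at 24 h 0 were up (0.0656% of all) or down (0.299% of all). At such shares a count of 0 says little about the list.

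In PMCAO at 24 h, where *Crtam* was 0.559-fold, 7 of the 47 were lower with PACAP38 (3.09% of all probes were) and 0 higher (0.418% of all). *Ptprc* (the pan-leukocyte antigen CD45) had log2 ratios of -0.69 and -0.56, *Fyb* (an adaptor of T cells and myeloid cells) -0.46 and -0.67, and *Ccl5* (a chemokine) -0.68 and -0.61. *Ccr7* (a homing receptor) was at least 1.36-fold lower. Of *Tbx21* and *Eomes* (T-box factors of effector T cells and NK cells), the first was at 0.151-fold of saline and the second at least 5.2-fold lower.

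Several of these 7 are not particular to lymphocytes. *Tbx21* and *Eomes* also mark projection neurons of the olfactory bulb, and 5 of 6 olfactory bulb markers, these 2 among them, were lower with PACAP38 in the same comparison (3.09% of all probes were), *S100a5* by -4.02 and -4.83, while the dissection is stated to leave the bulb out. *Tbx21* was also 5.13-fold higher with PACAP38 in sham at 6 h (log2 ratios 2.73 and 1.99, the second from the array with many outlier spots), where *S100a5* was higher by 4.26 and 0.82. The summed signal of the 6 bulb markers was 2834 with saline and 737 with PACAP38 in PMCAO at 24 h. The part of bulb tissue in these results was not tested.

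Myeloid markers were also among the probes called. In PMCAO at 24 h 6 of 9 neutrophil markers were lower with PACAP38 and 0 higher (3.09% and 0.418% of all probes), *S100a8* by -2.77 and -3.06 and *S100a9* by -3.12 and -3.03, and the summed signal of the list was 49621 with saline and 6039 with PACAP38. *Itgam* (CD11b) was at -0.68 and -0.67. Of 8 monocyte and macrophage markers 4 were lower and 0 higher in PMCAO at 24 h, 2 were higher and 0 lower in PMCAO at 6 h (0.661% of all probes were higher and 0.79% lower), and 0 were called in sham. In PMCAO at 6 h the neutrophil sum was 7663 with saline and 11584 with PACAP38, with 3 of 9 up, among them *S100a8* at 0.76 and 0.77. Of 9 microglial markers 1 was lower (*Tmem119*, -0.54 and -0.63) and 0 higher in PMCAO at 6 h, and 0 were called in the other 3 comparisons. Their summed signals with saline and PACAP38 were 26361 and 23307 in PMCAO at 6 h and 31253 and 28983 at 24 h. Of 8 brain markers (neurons, astrocytes and oligodendrocytes) 0 were called in the 4 comparisons. The B cell list of 7 genes, with *Cd79a* and *Cd79b* among them, had 0 up and 0 down in the 4 comparisons and summed signals between 108 and 244. Of these 7, only 2 to 4 were well above background in a pool of a comparison. Over the 4 comparisons 0.0656% to 0.661% of all probes were up and 0.283% to 3.09% down. At such shares counts of 0 on lists this short say little.

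In the PACAP38 pool of PMCAO at 6 h, where *Crtam* was brightest, *Cd3e* A_51_P455681, *Cd5* and *Cd4* A_52_P383089 were well above background in both dyes. *Cd2*, *Cd3g*, *Cd8a* A_52_P443334 and *Nkg7* A_52_P24447 were so in 1 dye, and the other 7 member probes in neither. The part that any cell type had in the *Crtam* ratio was not tested.

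**Figure D4:**
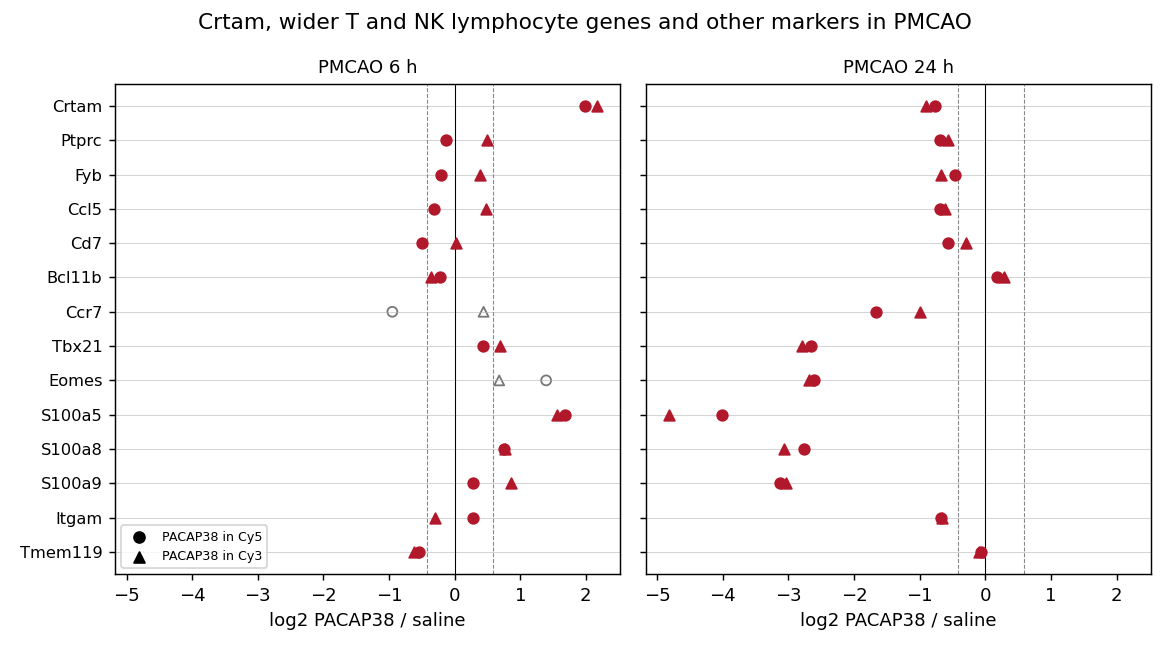
Log2 ratio of PACAP38 over saline on each array in PMCAO at 6 h and 24 h for *Crtam*, wider lymphocyte genes (*Ptprc* to *Eomes*), the olfactory bulb marker *S100a5*, the neutrophil markers *S100a8* and *S100a9*, *Itgam* and the microglial marker *Tmem119*; symbols and dashed lines are those of the member plot. *Ptprc*, *Fyb* and *Ccl5* straddle 0 at 6 h and lie between -0.46 and -0.69 at 24 h, and *S100a5* lies at -4.02 and -4.83.

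Against sham at 24 h with saline, 8 of the 47 were up (4.65% of all probes) and 2 down (5.93% of all) on both dyes. *Ccl5* was 4.91-fold, *Cd7* (a T and NK cell receptor) 3.16-fold, *Pdcd1* (the checkpoint receptor PD-1) 2.52-fold, *Fyb* 1.89-fold, and *Tbx21* and *Eomes* 5.82-fold and 5.04-fold higher. *Ccr7* was at least 1.51-fold higher, while *Bcl11b* (a T cell and striatal neuron factor) was at 0.698-fold and *Ctsw* (cathepsin W of cytotoxic cells) at least 1.32-fold lower. In the same pools *S100a8* was 74.7-fold and *S100a5* 14.3-fold higher. With PACAP38 at 24 h 2 were up (*Cd7*, 2.31-fold, and *Ccl5*, 2.78-fold; 2.15% of all) and 0 down (2.18% of all). At 6 h 3 were up (*Cd7*, *Bcl11b* and *Ctsw*; 5.45% of all) and 1 down (*Gata3*; 9.48% of all) with saline, and 2 up (*Pdcd1* and *Ccl5*; 3.03% of all) and 1 down (*Il7r*; 4.93% of all) with PACAP38. *Gata3* was at -0.46 and -1.75, and *Il7r* at -0.42 and -3.09, of which the second value of each rests on the sham array with many outlier spots.

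Markers of the cerebellum, where CRTAM has also been described, in Purkinje neurons, were checked because the dissection left the cerebellum out. *Pcp2* (a Purkinje cell marker) had log2 ratios of 0.38 and 0.47 in PMCAO at 6 h, short of the threshold. Another, *Car8*, was the 1 of 7 Purkinje cell markers that was up (0.661% of all probes). *Gabra6* (a receptor subunit of cerebellar granule cells) was at least 17.1-fold higher with PACAP38 in that comparison, in which *Cbln3*, another granule cell marker, was at least 1.07-fold higher and 1 of 8 granule cell markers was down (0.79% of all probes). The summed signal of the 8 granule cell markers was 10068 with saline and 12940 with PACAP38, and that of the 7 Purkinje cell markers 85301 and 90257. The part of cerebellar tissue in the *Crtam* ratio was not tested.

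Ratios of CRTAM's partners were read too. *Scrib* was well above background in all 16 channels, and its log2 ratios were 0.26 and 0.21 in PMCAO at 6 h and 0.03 and -0.22 at 24 h. *Cadm1*, which the arrays list under its older symbol *Igsf4a*, was at -0.40 on 1 array in PMCAO at 6 h, its spot on the other being an outlier, and at -0.10 and 0.34 in PMCAO at 24 h. *Scrib* in PMCAO over sham at 6 h was -0.34 and -2.13 with saline, of which the second rests on the sham array with many outlier spots. *Pvrl3* (the adhesion molecule nectin-3), on the same list and named after its values were seen, was at 0.45 and 0.45 in PMCAO at 6 h and 0.35 and 0.34 at 24 h, and at -0.64 and -0.33 in sham at 6 h and 0.02 and -0.07 at 24 h.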

How the data were processed

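RNA of 8 pools was measured on 8 two-colour 60-mer arrays. The authors deposited the output of Feature Extraction (9.5.1.1 at 6 h, 9.5.3.1 at 24 h per the file headers; the methods name 9.5.3.1). Its deposited log10 ratio is Cy5 over Cy3 after background subtraction and dye normalization, its deposited intensity columns hold mean, background and processed signals, its deposited p-value comes from the software's error model on 1 array, and its deposited flags mark outlier, surrogate, saturated and well-above-background spots. The authors also deposited a table of ratios, which are scores with a minus sign on arrays with PACAP38 in Cy3, and whose sizes differed from the processed ratio by at most 0.005. Second copies of 3 files were identical and not used.

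Log10 ratios were converted to log2, with the sign changed where PACAP38 was in Cy3. Control and outlier spots were left out, spots of a probe were averaged, and the 2 arrays were averaged to 1 replicate. PMCAO over sham used processed signals of the same dye, each channel scaled to its 75th percentile. Limits for dim probes used processed signals after loess and Aquantile, without normexp. Fits used limma 3.58.1 (R 4.3.3) with Benjamini-Hochberg adjustment at 0.05; PMCAO over sham had the time point as a random block. The number of arrays limits the precision. P-values measure only the spread of the 4 values of a fit, each from 1 pair of pools under another condition. That spread mixes differences between surgeries, times, slides or injections with those between mice.

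Members and gene lists were chosen with earlier results of these data known. Named genes were all members, wider-list genes past the thresholds on both arrays and well above background, *Crtam* partners, defining markers of other lists and the 5 genes most like *Crtam*, of which some are not reported here; Cadm1 was found by its RefSeq accession, added after its absence by symbol was seen. A list gene with several probes was taken by its brightest. Lists also covered monocytes and macrophages and brain. Alternatives were normexp (offset 50) with loess, outlier spots kept, the deposited table, each array alone, stricter calls, other scalings, and each comparison left out. Other steps ran in Python 3.11.15 (numpy 2.4.6, pandas 2.3.3), with figures drawn in matplotlib 3.10.9.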

Additional observations from a re-analysis of the deposited data

Results flagged for a closer look

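The PACAP38 over saline ratio had opposite signs on all arrays of a pair of comparisons for 3 member probes, and none of these differences was tested. *Crtam* was at 2.08 in PMCAO at 6 h and -0.84 in PMCAO at 24 h, a difference of 2.92 on the log2 scale. *Cd3e* A_51_P455681 was at 0.29 in sham and -0.24 in PMCAO at 6 h, a difference of 0.53. *Cd5* was at -0.32 in PMCAO at 6 h and 0.29 in PMCAO at 24 h, a difference of -0.61, and at -0.11 in sham at 24 h, which differs from PMCAO at 24 h by -0.40. Each comparison is 1 pair of pools, and the 6 h and 24 h arrays lie on different slides.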

How the results depend on the processing

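No paired analysis was possible because the 2 numbered arrays of a group are dye-swapped arrays of 1 pool and were averaged to 1 replicate. The cause of the changes below was not tested, except that normexp with an offset shrinks dim ratios and stricter rules keep fewer probes by construction. For PACAP38 over saline, the member probes up were 2 in sham at 6 h (0 with normexp and loess, 0 past the threshold on both arrays, 1 well above background in a channel on both arrays, 0 at a software p under 0.01, and 1 to 2 on each array alone), 4 in PMCAO at 6 h (1, 2, 1, 1 and 3 to 5 in that order), 2 in sham at 24 h (0, 0, 1, 0 and 1 to 4) and 0 in PMCAO at 24 h (0 to 2 on each array alone). Those down were 2 in sham at 6 h (0, 0, 0 and 0 in that order, 0 to 4 on each array alone, and 1 with 1.5-fold either way), 0 in PMCAO at 6 h (2 to 3 on each array alone), 0 in sham at 24 h (1 and 1 on each array alone) and 1 in PMCAO at 24 h (0 with normexp and loess, 4 to 5 on each array alone). Outlier spots kept and the deposited table changed none of these counts by over 1.5 times.

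For PMCAO over sham, those up were 7 with saline at 6 h (1 with normexp, loess and Aquantile, 3 in both dyes, 3 well above background on both arrays, and 6 to 8 in each dye alone), 11 with PACAP38 at 6 h (1, 2, 2 and 7 to 8 in that order, and 7 with median scaling), 2 with saline at 24 h (0, 1, 1 and 2 to 3) and 1 with PACAP38 at 24 h (0 with normexp, loess and Aquantile, and 1 to 2 in each dye alone). Those down were 0 with saline at 6 h (1 with median scaling, 1 to 4 in each dye alone), 0 with PACAP38 at 6 h (0 and 0 in each dye alone), 6 with saline at 24 h (0, 2, 1 and 3 to 6 in the first order) and 4 with PACAP38 at 24 h (0, 2, 2 and 4 to 5). Both limma fits called 0 member probes under all 7 alternatives for PACAP38 over saline and all 11 for PMCAO over sham, each comparison or difference left out among them (0 to 0), with lowest adjusted p over all probes of 0.79 to 0.92 and 0.077 to 0.63. Of 180 ratios of single member probes recomputed from both arrays, 139 moved by less than the spread of the 2 arrays, 40 moved by more and 1 called ratio changed sign, *Cd8a* A_52_P150547 in PMCAO at 6 h (from 0.93 to -0.021 with normexp and loess). Those outside the 139 were 25 with normexp and loess, 16 with the deposited table and 0 with outlier spots kept. Most member probes have a single spot, so keeping outlier spots could change little. Where the arrays of a dim probe lay far apart, a large move still counted as less. *Cd3g* in sham at 6 h went from 0.89 to 0.07 with normexp and loess and is among the 139. Signal over background limited 12 of the 15 member probes, which were well above background in under 8 of the 16 channels.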
